A study of Mus musculus with 4 samples.

Results

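Blastomeres of the mouse morula were compared between the 16-cell and the 32-cell stage. The cells were taken by the stage given in their column names in the gene table and the isoform table, which gave 38 cells at the 16-cell stage and 22 cells at the 32-cell stage, 60 of the 161 cells in these tables. The names of the 16-cell cells give 4 embryos, with 11 cells in embryo 1, 15 in embryo 2, 7 in embryo 3 and 5 in embryo 4. The names of the 32-cell cells give no embryo, and the cell lists of the study place all 22 in 1 sequencing run, the second of those that hold these 161 cells.

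The study read single oocytes, blastomeres and mouse embryonic stem cells as full-length cDNA with HIT-scISOseq, in which cDNA molecules carrying a cell barcode and a unique molecular identifier (UMI) are joined end to end and sequenced on the PacBio platform. Embryos of both stages came from C57BL/6J females of 6 to 8 weeks mated with DBA/2NCrl males, and the labels give the strain as DBA/2J x C57BL/6J. The females were superovulated, and morulae were collected between 78 and 80 hours after hCG, which is the same window for both stages. No treatment or mutant allele separated the stages. Beside the cell number of the embryo, most 16-cell cells differed from the 32-cell cells in the sequencing run and in the Xist and Y-linked UMIs given below.

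At the 16-cell stage the mouse embryo has compacted, and divisions have begun to place some blastomeres inside and others outside. Outer cells are polarised, keep the Hippo effector YAP1 in the nucleus and turn on trophectoderm genes such as Cdx2 together with TEAD4, whereas inner cells turn on Sox2 and go on to form the inner cell mass. Around the 32-cell stage the outer epithelium seals its tight junctions and begins to pump fluid into the blastocoel, while transcripts stored by the oocyte have largely been replaced by those of the embryo.

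Values are copies per 100,000 UMIs of a cell. The level at the 16-cell stage is the mean of the 4 embryo means ± SD (n = 4 embryos), and the level at the 32-cell stage is the mean over 22 cells with the range over cells. The 32-cell stage counts as 1 sample, so no p-value is given for a difference between the stages, and fold changes are log2((32-cell + 1)/(16-cell + 1)), which understates the change of low genes. A gene was called when the fold change was at least 1 in size and the 32-cell mean lay outside the range of the 4 embryo means.

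The 38 16-cell cells held 1183743 UMIs, and the embryos differed in depth, with medians of 38012, 38735, 12236 and 14987 UMIs per cell in embryos 1 to 4. The 22 32-cell cells held 762806 UMIs, between 13238 and 60779 per cell, so that 1 UMI was worth 1.65 to 7.55 copies there and 1.64 to 14.4 copies in the 16-cell cells. Embryos 3 and 4 were thus the least precise of the groups. The median cell held 4980 genes at the 16-cell stage and 5114.5 at the 32-cell stage. After thinning to 5000 UMIs per cell these were 1940.9 and 2004.6 genes. No 2 cells had the same values, and the highest correlation between any pair was 0.865.

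Groups stood apart from one another to different degrees. Embryo 1 lay at least 2-fold above all other groups in 6 genes and below them in 14, embryo 2 in 51 and 96, and the 32-cell cells in 27 and 12. The shallower embryos 3 and 4 stood apart in more genes than embryo 2, at 68 above and 307 below and at 68 above and 352 below. Counts of 16-cell cells per run in the cell lists match embryo 1, embryo 2, and embryos 3 and 4 together, if no embryo was split between runs, and embryo 2 would then be the embryo sequenced in the run of the 32-cell cells. The labels do not state this. For this reason the fold change from embryo 2 alone is given beside that from all 4 embryos for the main counts, the gene lists with a median and many of the named genes. Of the 5 cells named embryo 4, 2 had a UMI of Xist and 3 had a UMI of 1 of the 4 Y-linked genes Ddx3y, Eif2s3y, Kdm5d and Uty, with no cell in both sets. X-linked genes took 2.94 to 3.20% of UMIs in the cells with Xist and 1.82 to 2.03% in the others, so the 5 cells fell into 2 separate sets. The names do not show whether they came from 1 embryo. Under 1 embryo name, they were counted as 1 of the 4 embryos in every mean, SD and range.

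Of 5033 genes with a mean of the 2 stage levels of at least 2 copies, 488 were past the fold (9.7%) and 394 of them were called (7.83%). Of these, 236 were called higher at the 32-cell stage (4.69% of genes kept) and 158 were called lower (3.14%). The median fold change of all genes kept was 0.05, and 0.13 from embryo 2. Embryo 2 was the embryo closest to the 32-cell mean for 98 of the 158 lower genes and for 108 of the 236 higher genes. Requiring the same fold from embryo 2 as well, a condition chosen after the data were seen, left 111 higher genes (2.21%) and 41 lower genes (0.815%). Without embryo 2 the counts were 382 higher and 322 lower. An edgeR quasi-likelihood test on UMIs summed per embryo, which takes the single 32-cell sum to vary like a 16-cell embryo, found 0 genes at an adjusted p under 0.05, with 31 higher and 90 lower at an unadjusted p under 0.05. Stage and run cannot be told apart for any gene. A fold from embryo 2 does not separate them, since its run is inferred and it is 1 embryo against 1 sample.

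**Figure D1:**
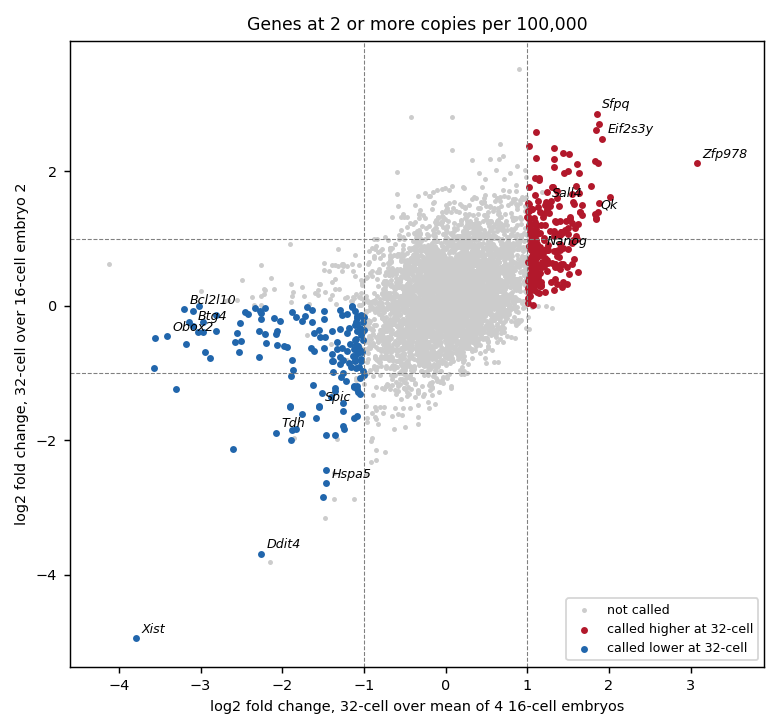
Each point is 1 of the 5033 genes kept, with the log2 fold change of the 32-cell mean from the mean of the 4 16-cell embryos on the horizontal axis and from embryo 2 alone on the vertical axis. Oocyte genes lie far to the left near 0 on the vertical axis, whereas 111 of the 236 higher genes and 41 of the 158 lower genes also pass the fold from embryo 2.

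Oocyte genes gave the largest differences, and these differences separated both the 32-cell cells and embryo 2 from the other 3 embryos. Whether their RNA was stored by the oocyte or made by the embryo was not measured. Of 11 maternal oocyte genes kept, 4 were called lower and none higher, with a median fold change of -2.66 from the 4 embryos and 0.05 from embryo 2. All 4 genes kept of the Obox family, homeobox genes of the oocyte and early embryo, were called lower, with medians of -2.69 and -0.50. Bcl2l10, an oocyte member of the BCL2 family, averaged 185.0, 12.5, 157.8 and 120.5 copies in embryos 1 to 4 and 12.1 copies at the 32-cell stage (range over cells 0 to 38.9). Embryo 2 thus lay beside the 32-cell cells, and the other embryos far above both. The fold change was -3.20 from the 4 embryos and -0.05 from embryo 2.

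Btg4, an adaptor that brings the deadenylase to maternal mRNA, averaged 109.8, 10.1, 97.0 and 89.5 copies in the embryos and 8.07 at the 32-cell stage. Gdf9, a growth factor secreted by the oocyte, averaged 31.4, 3.07, 38.9 and 43.9 copies, against 2.45. In both, embryo 2 lay nearest to the 32-cell mean and the other 3 embryos far above it. Tcl1b1 and Tcl1, of a family of AKT coactivators, went from 65.8 ± 44.5 to 6.80 copies and from 138 ± 84.6 to 18.8 copies, with embryo 2 at 7.26 and 20.9. H1foo, the linker histone of the oocyte, had the largest difference of the maternal list, -4.12, but was not called because embryo 2, at 2.96 copies, lay below the 32-cell mean of 5.07. Oosp1, Oosp3 and Oog3 were not called for the same reason. Khdc3, a component of the subcortical maternal complex, was at 130 ± 22.4 and 106 copies, and Dppa3, a maternal factor that is also made by the embryo, at 779 ± 159 and 567 copies.

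Other stages in the tables gave a wide range for these genes. Bcl2l10 ranged from 9.96 to 108 copies over 4 8-cell embryos, Btg4 from 4.79 to 65.0 and Gdf9 from 0.53 to 24.5, so that the lowest 8-cell embryo lay below the 32-cell mean in each. The 13 blastocyst cells, which name no embryo, lay above the 32-cell mean, at 78.0 to 226 copies of Bcl2l10, 41.5 to 192 of Btg4 and 3.77 to 45.4 of Gdf9. Whether the low levels in the 32-cell cells and embryo 2 are a property of the embryos or of the run was not tested.

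Among the 12 genes called lower with the largest change were also Rfpl4, Obox2, D6Ertd527e, E330021D16Rik, Bpgm and Oas1d, each with embryo 2 as the embryo closest to the 32-cell mean. D6Ertd527e alone of these also passed the fold from embryo 2, at 23.0, 3.08, 20.0 and 18.3 copies in the embryos and 0.74 at the 32-cell stage, where 5 of 22 cells had a UMI. Cpa1, a carboxypeptidase, had 1 UMI of 762806 in the 32-cell cells and 87 of 1183743 in the 16-cell cells, a ratio of pooled rates of 56.1 with a 95% interval of 9.80 to 2239.5 that covers counting error only. In embryo 2 it averaged 0.52 copies.

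**Figure D2:**
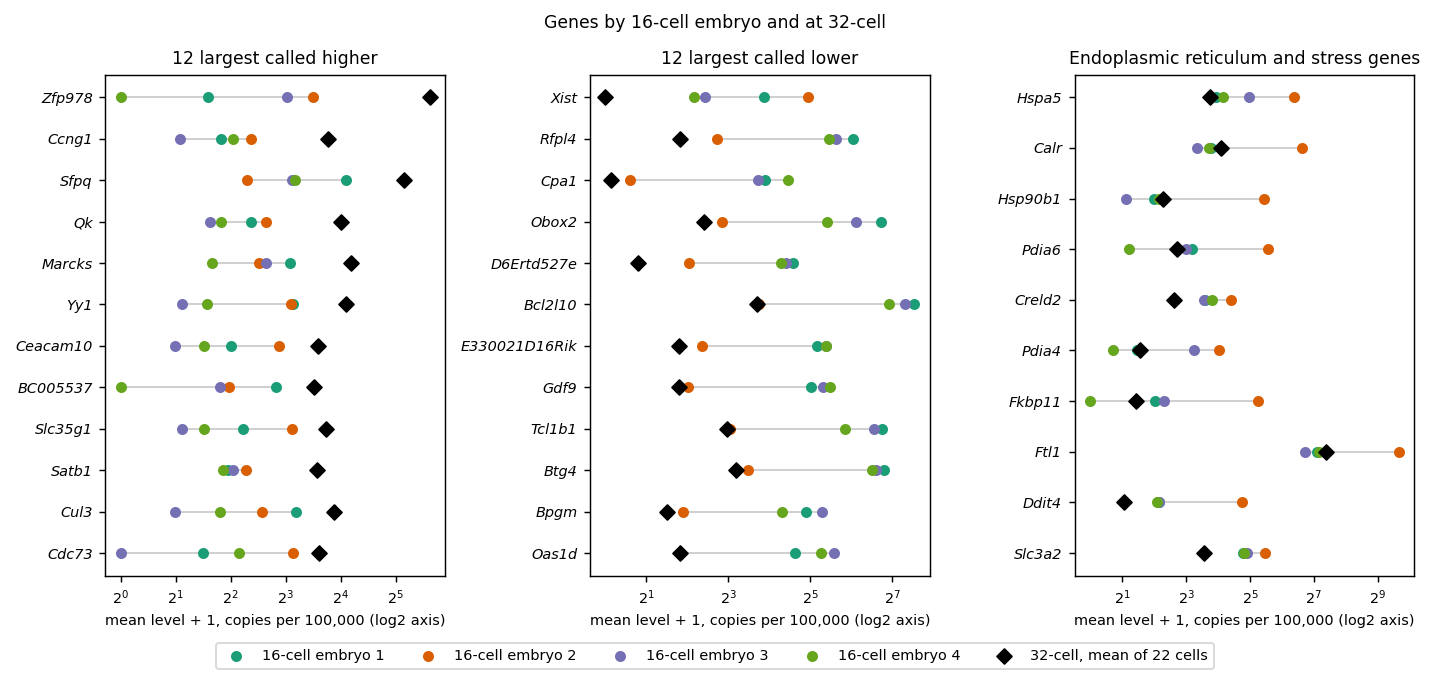
Mean level + 1 in copies per 100,000 (log2 axis) for the 12 genes called higher with the largest change, the 12 called lower and 10 endoplasmic reticulum and stress genes chosen after their values were seen. Coloured circles are the means of 16-cell embryos 1 to 4 and black diamonds the mean of 22 32-cell cells: embryo 2 lies next to the diamond for most genes called lower, and far above it for Hspa5, Calr, Hsp90b1, Pdia6, Fkbp11 and Ftl1.

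A smaller set of the genes called lower also passed the fold from embryo 2. By the rule of the call, every lower gene lay below all 4 embryo means. At 10 or more copies in the higher stage, 71 of 1898 genes were called lower (3.74%), and 19 of them also passed the fold from embryo 2 (1%). Spic, an ETS-family transcription factor related to PU.1, averaged 27.4, 27.3, 27.6 and 31.1 copies in the embryos and 9.05 at the 32-cell stage, a fold change of -1.55, with 15 of 22 cells holding a UMI against 36 of 38. The 4 embryo means of Spic lay close together, and the 32-cell mean lay far below them, but the cells overlapped. In embryo 1 the median cell held 8.48 copies (1.92 to 112 over cells), next to a 32-cell median of 7.49 (0 to 36.5). The medians in embryos 2 to 4 were 22.1, 24.5 and 33.4 copies. Tdh, the threonine dehydrogenase of pluripotent cells, went from 25.3 ± 10.2 to 5.24 copies (-2.07, and -1.89 from embryo 2). Pgam1, a glycolytic mutase, averaged 18.4, 41.9, 65.5 and 52.1 copies and 16.8 at the 32-cell stage, so that embryo 1 came close to the 32-cell mean. Obox6 averaged 9.56, 21.5, 35.0 and 49.4 copies and 6.97 at the 32-cell stage, and Ctsb, a lysosomal protease, 4.78, 11.5, 7.81 and 19.1 copies and 2.92. Sapcd2, which takes part in spindle orientation and apical polarity, went from 16.8 ± 8.31 to 6.47 copies, and Slc3a2, the heavy chain of amino acid exchangers, from 31.5 ± 7.95 to 10.8. The set also held AC168977.1, AC133103.5, Pqlc1, Arpc1b, C130074G19Rik, Creld2, Hspa5 and the X-linked genes Xist, Ebp, Lamp2 and Atp6ap2. Without embryo 2, Hspa5, Pqlc1 and Ebp were no longer called, without embryo 3 Lamp2 and Atp6ap2 were not, and without embryo 4 Arpc1b, Sapcd2 and C130074G19Rik were not.

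Some genes of the endoplasmic reticulum differed mainly within the 16-cell stage. A list of 22 genes of this compartment and of stress was chosen after their values were seen, so its members describe embryo 2 and support nothing. Hspa5, the chaperone BiP, averaged 14.4, 82.1, 30.2 and 16.7 copies in embryos 1 to 4 and 12.4 at the 32-cell stage (0 to 38.4 over cells). It was called lower at -1.46, but at -0.68 without embryo 2, which is not past the fold. Calr, a lectin chaperone, averaged 12.8, 97.7, 9.08 and 12.2 copies and 16.2 at the 32-cell stage. Hsp90b1, the HSP90 of this compartment, averaged 2.95, 42.5, 1.17 and 3.50 copies and 3.87, and Pdia6, a disulfide isomerase, 8.16, 46.7, 7.05 and 1.33 copies and 5.52. The 32-cell mean thus lay inside or next to the range of embryos 1, 3 and 4 for these genes, and embryo 2 lay far above all of them. Creld2, a secreted chaperone cofactor, was lower at the 32-cell stage than in every embryo, at 10.96, 20.4, 10.8 and 13.1 copies against 5.19. Ddit4, a stress-induced inhibitor of mTORC1, averaged 3.45, 25.8, 3.44 and 3.23 copies and 1.08 at the 32-cell stage. Ftl1, the ferritin light chain, was at 808 copies in embryo 2, between 105 and 141 in the other embryos and at 164 at the 32-cell stage. Other members of the list did not have this pattern. Dnajb11, a chaperone cofactor, averaged 11.6, 9.62, 13.3 and 16.3 copies in the embryos and 11.2 at the 32-cell stage, Pdia3, a disulfide isomerase, 12.6, 14.5, 26.8 and 26.3 copies and 9.67, and Canx, a membrane lectin chaperone, 17.8, 26.2, 16.8 and 8.46 copies and 23.7. Embryo 2 was the lowest embryo for Dnajb11 and was exceeded by embryos 3 and 4 for Pdia3. For Canx embryo 2 was the highest embryo, but it lay close to the 32-cell mean. In 13 blastocyst cells Hspa5 averaged 47.0 copies (25.3 to 74.3).

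The promoters of these genes are shown because several of the genes that were high together in embryo 2 carry a known element, the endoplasmic reticulum stress response element, to which NF-Y and ATF6 bind. It was searched as CCAAT, 9 unspecified bases and CCACG on both strands in the RefSeq promoter windows of GRCm38.p6, which run from 250 bases before to 50 after each gene's start. Of 22 endoplasmic reticulum and stress genes searched, 20 had a window, and 7 of these genes held the motif. Counted as windows and not as genes, 39 of 32851 windows in all held it (0.119%). The genes searched had been chosen by their compartment and after their values were seen. These counts therefore do not show whether the motif goes with high levels in embryo 2. Capitals mark the motif or its reverse complement.
Hspa5 (chr2:34771840-34772139, plus strand): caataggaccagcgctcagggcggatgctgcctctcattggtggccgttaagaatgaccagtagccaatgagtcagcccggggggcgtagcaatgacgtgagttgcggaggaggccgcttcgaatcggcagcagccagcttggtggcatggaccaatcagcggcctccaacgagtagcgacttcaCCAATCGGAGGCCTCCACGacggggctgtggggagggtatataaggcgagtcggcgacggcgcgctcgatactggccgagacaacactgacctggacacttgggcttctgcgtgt
Calr (chr8:84846882-84847181, minus strand): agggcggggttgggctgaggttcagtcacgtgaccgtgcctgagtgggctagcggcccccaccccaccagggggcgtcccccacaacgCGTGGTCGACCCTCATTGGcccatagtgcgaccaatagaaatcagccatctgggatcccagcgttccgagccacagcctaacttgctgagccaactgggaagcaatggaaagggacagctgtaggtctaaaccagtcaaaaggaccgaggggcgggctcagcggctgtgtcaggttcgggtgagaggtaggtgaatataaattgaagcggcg
Hsp90b1 (chr10:86705395-86705694, minus strand): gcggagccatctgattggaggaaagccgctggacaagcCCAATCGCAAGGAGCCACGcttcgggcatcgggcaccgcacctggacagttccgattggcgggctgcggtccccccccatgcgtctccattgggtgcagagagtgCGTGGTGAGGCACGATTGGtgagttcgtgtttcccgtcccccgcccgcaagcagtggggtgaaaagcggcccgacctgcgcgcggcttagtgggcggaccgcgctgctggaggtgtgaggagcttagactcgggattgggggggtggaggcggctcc
Pdia6 (chr12:17266339-17266638, plus strand): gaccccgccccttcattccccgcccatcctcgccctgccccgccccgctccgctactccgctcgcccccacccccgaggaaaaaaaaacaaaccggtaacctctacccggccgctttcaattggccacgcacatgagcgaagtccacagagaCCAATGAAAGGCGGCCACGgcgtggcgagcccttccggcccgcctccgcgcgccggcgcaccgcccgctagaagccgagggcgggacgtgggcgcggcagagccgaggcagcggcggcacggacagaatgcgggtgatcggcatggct
Creld2 (chr15:88819396-88819695, plus strand): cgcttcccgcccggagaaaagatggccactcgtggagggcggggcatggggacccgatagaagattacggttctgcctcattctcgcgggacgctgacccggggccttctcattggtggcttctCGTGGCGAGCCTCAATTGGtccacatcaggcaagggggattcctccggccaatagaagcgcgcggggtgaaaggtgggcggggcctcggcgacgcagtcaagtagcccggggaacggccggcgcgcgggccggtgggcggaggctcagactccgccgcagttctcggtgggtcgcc
The match covered bases 186 to 204 of the window in Hspa5 and 153 to 171 in Pdia6 on the strand of the gene. In Calr it covered bases 89 to 107 and in Creld2 bases 125 to 143 on the other strand, and Hsp90b1 held a match on each strand. Dnajc3 and Canx were the other genes with a match. Fkbp11, Ftl1, Ddit4, Slc3a2, Pdia4, Sdf2l1, P4hb and Xbp1 also had their highest embryo mean in embryo 2 and held no match. A match of letters shows neither binding nor a cause of these levels.

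The 12 genes called higher with the largest change averaged no more than 16.1 copies in any 16-cell embryo. Zfp978, a zinc finger gene on chromosome 4 (GRCm38, chr4:147361303-147391004), had the largest change. It averaged 1.98, 10.3, 7.10 and 0 copies in the embryos and 48.2 at the 32-cell stage, where all 22 cells had a UMI (5.64 to 87.1 copies, 381 UMIs). The neighbouring stages were lower, with 8-cell embryos between 1.52 and 6.05 copies and blastocyst cells at 7.04 (0 to 13.2). The fold change was 3.07, and 2.12 from embryo 2. Zfp978 lies among near-identical zinc finger genes, so the assignment of reads to this copy is uncertain.

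Sfpq, a splicing factor of paraspeckles, averaged 16.1, 3.94, 7.65 and 7.98 copies in the embryos and 34.7 at the 32-cell stage, with a UMI in all 22 cells (9.13 to 77.8). The fold change was 1.85, and 2.86 from embryo 2. Qk, a STAR-domain RNA-binding protein, went from 3.51 ± 1.46 to 15.0 copies, Yy1, a zinc finger transcription factor, from 4.60 ± 3.53 to 16.1, and Satb1, a chromatin organiser, from 3.12 ± 0.54 to 10.9. Ccng1, a target of p53, went from 2.72 ± 1.27 to 12.6 copies and Mdm2, the ubiquitin ligase of p53 and itself a target, from 3.53 ± 2.35 to 10.7. Both also passed the fold from embryo 2, at 1.40 and 1.61. Marcks, an actin-binding substrate of protein kinase C, went from between 2.165 and 7.44 copies in the embryos to 17.2 and Cul3, a ubiquitin ligase scaffold, from 4.12 ± 3.11 to 13.7 copies. All 4 embryo means lay below the 32-cell mean for each of these genes, which the call required. Ceacam10, Slc35g1 and Cdc73 were among the 12 largest but were nearest to embryo 2, with fold changes from it of 0.70, 0.62 and 0.47.

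At 10 or more copies, 59 of 1898 genes were called higher (3.11%) and 22 of them also passed the fold from embryo 2 (1.16%). Beside the genes above these were Mcm4, a subunit of the replicative helicase (4.71 ± 1.89 to 13.2 copies), Chd4, the ATPase of the NuRD complex (4.83 ± 0.99 to 10.8), Son and Sf1, which act in splicing (4.64 ± 2.74 to 10.4 and 4.77 ± 3.36 to 10.7), and Enah, an actin regulator (12.4 ± 8.05 to 34.8). Crip1, C130073F10Rik, Gm9780, Sall4, BC005537, Arih2, Btg1 and Tm9sf3 made up the rest. Gm9780 and the numbered clones are named as the files give them. Several calls rested on 1 embryo: without embryo 2, Arih2, C130073F10Rik, Chd4, Crip1, Sf1 and Son were no longer called. Without embryo 3, Arih2, Btg1 and C130073F10Rik were not called, and without embryo 4, Arih2, Crip1, Sf1 and Son were not.

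Lineage factors moved in single genes and not as lists. Of 17 inner cell mass and pluripotency factors kept, 2 were called higher and 2 lower, with a median fold change of -0.18 from the 4 embryos and 0.15 from embryo 2. Of 12 trophectoderm factors and keratins kept, 1 was called higher and 1 lower, with medians of 0.21 and 0.15. None of 5 primitive endoderm genes kept was called, with medians of 0.49 and 1.13. For these lists and those below, the share over all genes kept was 4.69% higher and 3.14% lower.

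Nanog, the homeobox factor of the epiblast, averaged 6.14, 4.38, 0 and 2.49 copies in the embryos and 8.53 at the 32-cell stage. It was detected in 20 of 22 cells against 20 of 38 (30.9 and 17.9% of cells when thinned to 5000 UMIs), was called at 1.16 and had a fold change of 0.82 from embryo 2. Without embryo 3 its fold change was 0.84, below the limit. Sall4, a zinc finger partner of Pou5f1, averaged 10.4, 5.97, 7.61 and 6.66 copies and 19.3 at the 32-cell stage, past the fold from embryo 2 as well. Pou5f1 itself went the other way, at 21.8, 30.0, 79.4 and 52.4 copies and 20.7. Its 32-cell mean lay just under embryo 1, and without embryo 3 its change was -0.72.

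Sox2, the first gene limited to inner cells, did not reach the level needed to be kept, at 1.75, 0.19, 0 and 0 copies in the embryos and 3.27 at the 32-cell stage. A UMI was seen in 7 of 22 32-cell cells (31.8%, exact 95% interval 13.9 to 54.9%) and in 4 of 38 16-cell cells (10.5%, 2.94 to 24.8%). By embryo these were 3 of 11, 1 of 15, 0 of 7 and 0 of 5 cells in embryos 1 to 4. The intervals take cells as independent and cover counting error only, so they do not test a difference between the stages. The 8-cell embryos averaged between 0 and 0.41 copies. Thinned to 5000 UMIs per cell, the share of 32-cell cells with a Sox2 UMI was 12.7% and that of 16-cell cells 3.16%. Cdx2, which specifies trophectoderm, averaged 1.20, 1.11, 12.6 and 15.6 copies in the embryos and 1.56 at the 32-cell stage, with a UMI in 5 of 22 cells. Embryos 1 and 2 lay below the 32-cell mean and embryos 3 and 4 above it, so the gene was not called. In embryo 4 its 8 UMIs came from 2 cells.

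Eomes, a T-box factor of trophectoderm, was called higher (1.58 ± 1.44 to 4.51 copies), although not without embryo 2 or without embryo 4, and Hand1, a factor of later trophoblast, was called lower (4.29 ± 2.26 to 0.44), on 2 UMIs at the 32-cell stage. The other trophectoderm genes kept gave values within or near the embryo range. Gata3 was at 3.49 ± 1.64 and 4.23 copies, Tfap2c at 8.17 ± 1.70 and 9.50, Krt8 at 7.98 ± 4.89 and 13.2, and Krt18 at 15.9 ± 7.74 and 14.5. Tead4, the DNA-binding partner of YAP1, was at 9.09 ± 0.90 and 12.3 copies, and Yap1 at 5.82 ± 0.86 and 9.46. Of 8 Hippo pathway genes kept, 1 was called higher, Tead1 (0.99 ± 0.76 to 3.09 copies), which was not called without embryo 1 or without embryo 4. Gata6, the first primitive endoderm factor, was at 13.5 ± 6.65 and 19.2 copies, and Gata4 and Sox17 had a UMI in 0 and 1 of the 22 cells. Fgf4, the ligand by which epiblast precursors signal, had no UMI in 22 32-cell cells, which allows a share of up to 13.6% of cells with a UMI taking 3 counts as the limit, and up to 15.4% by the exact 95% interval, while 5 cells of embryo 2 had one.

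**Figure D3:**
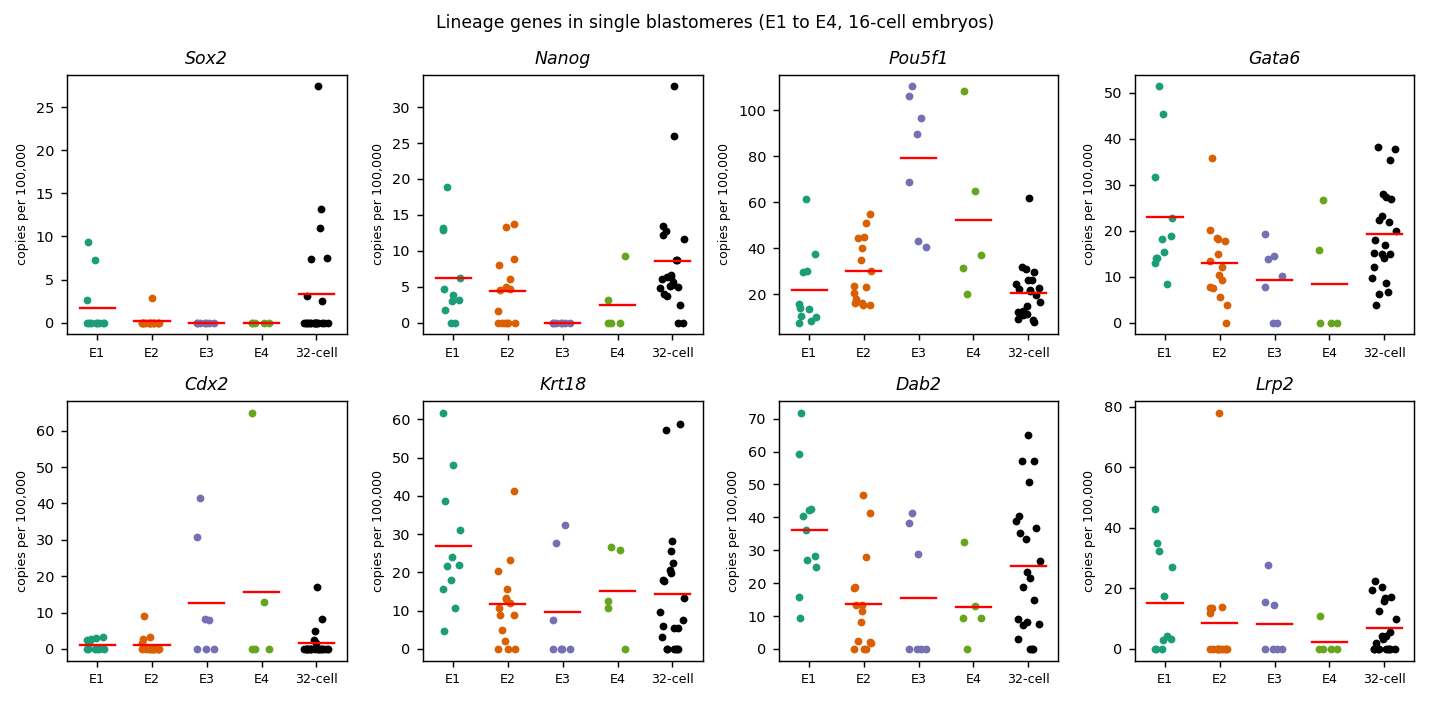
Level of 8 lineage genes in each blastomere, in copies per 100,000, for 16-cell embryos 1 to 4 (E1 to E4) and the 32-cell cells, with red lines at the group means. Sox2 was seen in 7 of 22 32-cell cells and Cdx2 in 5, while Krt18, Dab2 and Lrp2 spread widely over cells of both stages.

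Within the 32-cell stage the cells differed in these genes. The genes set beside Sox2 here were chosen after their values were seen, and Dab2 because it had the lowest correlation with Sox2 of the 1656 genes given below. In the 7 cells with a Sox2 UMI, Krt18 ranged from 0 to 7.55 copies, and in the 15 others from 0 to 58.7. Its partner keratin Krt8 had a UMI in 4 of the 7 cells (0 to 15.3 copies) and in 13 of the 15 (0 to 39.4). Dab2, an adaptor of the apical endocytic machinery, ranged from 0 to 14.8 copies in the 7 cells and from 8.23 to 65.0 in the 15. Lrp2, the endocytic receptor megalin, had a UMI in 0 of the 7 cells and in 13 of the 15. Cdx2 was seen in 0 of the 7 and in 5 of the 15, and Spp1, a secreted phosphoprotein, in 6 of the 7 and in 4 of the 15. Not every trophectoderm gene was lower in the cells with Sox2. Eomes was highest in these, at 0 to 26.3 copies in the 7 cells and 0 to 7.71 in the 15. Gata3 ranged from 0 to 9.89 copies in the 7 cells and from 0 to 23.1 in the 15. The sets overlapped in Krt18, Krt8, Dab2, Eomes and Gata3. Nanog (0 to 32.9 and 0 to 25.9 copies) and Gata6 (6.56 to 37.8 and 3.92 to 38.1) overlapped over nearly their whole range.

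Over the 22 cells and 1656 genes, which share 1 run and a range of depths, the Spearman correlations most like Sox2 were those of Oosp1 (0.67), Ndufs5 (0.65), Elavl1 (0.64), Cenpw (0.63) and Seh1l (0.62), and the lowest was that of Dab2 (-0.80). The most like Cdx2 were Srsf3 (0.71), Dnajb6 (0.64), Tyms (0.61), Rfc4 (0.61) and Edf1 (0.57). Sox2 and Cdx2 were at 0 in most cells, so these values describe which few cells held a UMI. Sox2 correlated with UMIs per cell at -0.28. Between genes detected in most cells, Krt18 correlated with Myh10, a nonmuscle myosin, at 0.72, with Dab2 at 0.64 and with Krt8 at 0.49. These pairs were chosen after the values were seen.

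Genes of the outer epithelium showed few differences. Of 24 junction, adhesion and polarity genes kept, 2 were called higher and 1 lower. Prkci, the atypical protein kinase C of the apical domain, averaged 2.79, 2.27, 0 and 0 copies in the embryos and 7.09 at the 32-cell stage, and Itga6, a laminin-binding integrin, 3.92, 3.33, 1.10 and 0 copies and 7.14. Pard6b, the partner of Prkci in the apical complex, was called lower, at 5.21, 6.47, 6.19 and 5.79 copies and 2.26 at the 32-cell stage. All 4 embryo means lay within 1.3 copies of each other for Pard6b, but embryos 3 and 4 held 4 UMIs each. The 16-cell cells ranged from 0 to 28.9 copies, so this closeness is no measure of precision. Summed from the isoform table, Prkci had a fold change of -0.091. Cdh1, the epithelial cadherin, was at 9.65 ± 3.96 and 15.4 copies, Epcam at 35.3 ± 12.9 and 46.8, and Cldn4, a tight junction claudin, at 9.49 ± 5.92 and 5.53.

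Of 8 blastocoel ion pumps, channels and aquaporins kept, only Slc7a6, an amino acid transporter, was called (2.23 ± 2.43 to 7.31 copies), and it was nearest to embryo 2, with a fold change of 0.32 from it. Atp1b1, the sodium pump subunit of the trophectoderm, was at 1.49 ± 0.47 and 3.55 copies. Aqp3, a water and glycerol channel, was at 12.7, 10.1, 47.6 and 15.3 copies in the embryos and 14.9 at the 32-cell stage. None of 11 endocytic receptor and apical genes kept was called, with Lrp2 at 8.60 ± 5.37 and 7.01 copies and Dab2 at 19.6 ± 11.1 and 25.3. Of 25 actin, myosin and cytoskeleton genes kept, 20 had a fold change above 0, with a median of 0.49, and 1 was called, Crip1 (8.39 ± 4.89 to 18.1 copies). The median from embryo 2 was 0.19. Actg1, cytoplasmic actin, was at 171 ± 57.5 and 299 copies.

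Few genes of the housekeeping and metabolic lists were called. None of 81 ribosomal protein genes, 35 proteasome subunit genes, 76 nuclear oxidative phosphorylation genes, 13 mitochondrially encoded genes or 21 metallothionein and redox genes kept was called. The ribosomal protein genes had a median fold change of 0.20 from the 4 embryos and of -0.21 from embryo 2, so that their direction rested on the embryo. The median turned as well for the proteasome (-0.09 and 0.05), the nuclear oxidative phosphorylation genes (0.21 and -0.10) and the redox genes (0.12 and -0.11), whereas the mitochondrially encoded genes were at 0.20 and 0.74. Over all genes kept the medians were 0.05 and 0.13. Of 12 glucose transport and glycolysis genes, Pgam1 and Ldhb were called lower, Ldhb with embryo 2 (1.72 copies) beside the 32-cell mean (1.60). Of 10 sterol synthesis and uptake genes, Ebp was called lower. Of 25 cell cycle genes, Mcm4 was called higher, and Cdkn1a, the p53-induced cyclin kinase inhibitor, stood at 0.996 (9.11 ± 6.61 and 19.2 copies), just under the limit. Of 8 stress and p53 target genes, Ccng1 and Mdm2 were called higher and Ddit4 and Hspa5 lower. Of 9 signalling genes of the FGF, LIF, WNT, BMP and Notch pathways, Spry2, a feedback inhibitor of FGF signalling, was called higher (0.81 ± 0.98 to 4.29 copies). Id3, a target of BMP signalling, stood at -0.99 (32.8 ± 6.27 and 16.0 copies). Of 4 imprinted genes, Xist was called. No gene of the 2-cell burst or of the cumulus and granulosa cell markers was kept, and the 7 cumulus markers in the table had no UMI in the 32-cell cells.

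The sex chromosomes separated the 32-cell cells from most 16-cell cells. Xist, the RNA that coats the inactive X, averaged 13.7, 29.7, 4.38 and 3.46 copies in embryos 1 to 4 and had no UMI in any of the 22 32-cell cells. It was at least 32.6-fold lower there, taking 3 UMIs over the group as the limit that a count of 0 allows, and at least 75.6-fold lower than in embryo 2. UMIs of Xist were found in 9 of 11, 14 of 15, 3 of 7 and 2 of 5 cells of the embryos. Conversely, the Y-linked genes Ddx3y, Eif2s3y, Kdm5d and Uty had 57 UMIs in 17 of 22 32-cell cells, 1 UMI in embryo 2, none in embryos 1 and 3, and 3 UMIs in 3 cells of embryo 4. Eif2s3y, a translation factor subunit, averaged 4.61 copies at the 32-cell stage and was at 0 in embryos 1 to 3. Counted over every gene annotated on the Y chromosome, UMIs were found in all cells of both stages, 1296 at the 32-cell stage and 1316 in embryo 2. Of these genes only Gm47283 and Eif2s3y were kept, with Gm47283 at 185.7 ± 49.4 and 173.9 copies, so the set of 4 genes and not the chromosome as a whole separates the groups.

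X-linked genes took 2.84, 2.96, 3.09 and 2.25% of UMIs in embryos 1 to 4 and 2.05% at the 32-cell stage (1.89 to 2.19% over cells). The 2 cells of embryo 4 with Xist had 2.94 and 3.20%, and its 3 cells with a UMI of those 4 Y-linked genes between 1.82 and 2.03%. The share was thus about the same in those 3 cells and in the 32-cell cells. Of 126 X-linked genes kept, 12 were called lower (9.52%) and 2 higher (1.59%), against 142 lower (2.92%) and 231 higher (4.76%) of 4858 autosomal genes, and the median fold change was -0.30 against 0.06. From embryo 2 the medians were -0.24 and 0.14. Beside Xist the lower genes were AU022751, Tsr2, Timm8a1, Lamp2, Txlng, Ebp, Atp6ap2, Sms, Syap1, Prps1 and Fmr1nb, and the higher included Rbmx. Prps1, a nucleotide synthesis enzyme, averaged 102.9, 92.1, 133.4 and 98.3 copies and 51.5 at the 32-cell stage, and Sms, spermine synthase, 44.6, 42.1, 77.0 and 45.1 copies and 23.6. The call required all 4 embryo means to lie above the 32-cell mean, and the lowest embryo means were 92.1 and 42.1 copies. Stage cannot be told apart from the sex chromosome content of the cells for these genes, since 17 of 22 32-cell cells had a UMI of those 4 Y-linked genes and 28 of 38 16-cell cells a Xist UMI.

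**Figure D4:**
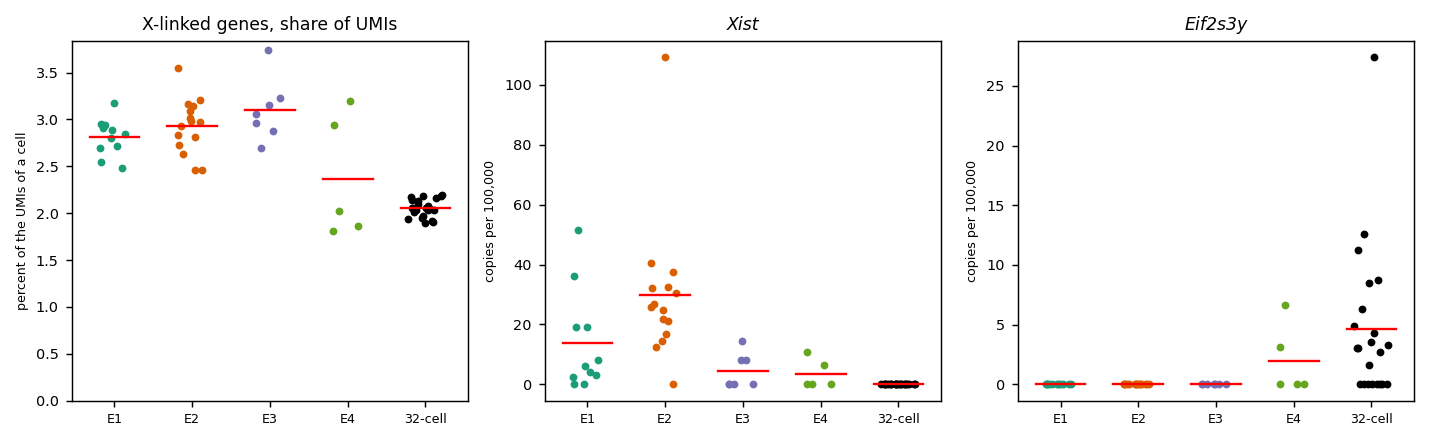
Share of a cell's UMIs from X-linked genes (percent) and the levels of Xist and Eif2s3y (copies per 100,000) in each cell of 16-cell embryos 1 to 4 (E1 to E4) and of the 32-cell stage, with red lines at the mean over cells. The 32-cell cells lie between 1.89 and 2.19% with no Xist, and the 5 cells of embryo 4 lie in both ranges.

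At the isoform level, 1334 of 4831 isoforms kept were past the fold (27.6%) and 855 were called (17.7%). Of these, 524 were called higher (10.8%) and 331 were called lower (6.85%), of which 142 (2.94%) and 44 (0.911%) also passed the fold from embryo 2. The calls were spread over 668 genes, and 725 of the 855 isoforms belonged to genes that were kept but not called as a gene. The kind of isoform differed by direction. Of 1165 isoforms of the class that matches only a part of a known transcript (incomplete splice match), 315 were called higher and 13 lower, while of 3305 isoforms with all junctions of a known transcript (full splice match), 167 were called higher and 289 lower. Isoforms with an unannotated combination of known splice sites (231 kept) were called higher in 32 and lower in 11 cases, and those with an unannotated splice site (130 kept) in 10 and 18. The median length was 728.5 bases for isoforms called higher and 1667 bases for those called lower.

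The mean isoform length of the libraries moved with this, taking for each UMI the summed exon length of its isoform. The mean length per UMI was 1221, 1091, 1432 and 1357 bases in embryos 1 to 4 and 1131 bases at the 32-cell stage. Incomplete splice matches took 14.4, 17.6, 7.92 and 8.34% of isoform UMIs in the embryos and 17.6% at the 32-cell stage. Embryo 2 was closest to the 32-cell cells in both, and embryos 3 and 4 had the longest isoforms and the fewest partial ones. Both measures are drawn from the same isoforms that were compared, and the length of the reads was not measured. The part of molecule length in the isoform differences was not tested beyond the comparison with embryo 2.

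Among 1679 isoforms at 10 or more copies, 151 were called higher (8.99%) and 121 lower (7.21%), of which 20 (1.19%) and 12 (0.715%) also passed the fold from embryo 2. The largest difference upwards was in a 1-exon isoform of 2023 bases labelled mt-Nd3 (PB.78709.683, chrM:8847-10869). Which mitochondrial genes this span covers was not examined, so the label may not name the molecule. This isoform averaged 3.30, 15.2, 3.78 and 5.98 copies in the embryos and 89.6 at the 32-cell stage (25.2 to 330 over cells). It was at 2.48 from embryo 2, while mt-Nd3 as a gene, a subunit of respiratory complex I, was not called (68.7 ± 32.0 and 108 copies). The second was the 4-exon Zfp978 isoform with an unannotated splice site (PB.54823.295, 590 bases, chr4:147361251-147544786), at 0, 9.16, 5.37 and 0 copies and 43.8. It made up 91.3% of the gene's isoform UMIs at the 32-cell stage, and its span runs beyond the end of the annotated gene. A 2-exon Cox6c isoform of 1861 bases (PB.26176.2) went from 0.88 ± 1.02 to 10.1 copies, within a gene, a subunit of complex IV, that averaged 233 copies at the 32-cell stage. Rps15a (PB.68971.15), Tax1bp3 (PB.12201.3) and Timd2 (PB.10934.188) were the others of the 6 largest, the last 2 under the fold from embryo 2 at 0.85 and 0.82.

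The 6 isoforms called lower with the largest change carried the labels of the oocyte genes Oosp3, Oosp1 and Tcl1b1, the ribosomal stalk genes Rplp1 and Rplp0, and mt-Nd1. The Oosp3 isoform PB.38236.14 averaged 45.7, 1.80, 9.64 and 14.2 copies in the embryos and 0.42 at the 32-cell stage. An Rplp1 isoform of 1808 bases (PB.76238.3) averaged 217.8, 7.76, 37.7 and 60.8 copies and 5.97 at the 32-cell stage, and made up 53.6% of the gene's isoform UMIs in embryo 1, 1.03% in embryo 2 and 1.14% at the 32-cell stage. Rplp1 as a gene was at 374 and 515 copies and was not called. A 1-exon isoform of 2562 bases labelled mt-Nd1 (PB.78709.34, chrM:694-3255) averaged 4.86, 6.63, 67.6 and 60.5 copies and 2.21. Embryos 1 and 2 thus stood against embryos 3 and 4. Which mitochondrial genes its span covers was not examined, so the label may not name the molecule. Rplp0 (PB.58793.1), Tcl1b1 (PB.18137.201) and Oosp1 (PB.38237.8) completed the 6, with embryo 2 near the 32-cell mean in each.

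The share of a gene's UMIs held by an isoform was compared for 7875 isoforms of 557 genes with at least 20 isoform UMIs in every embryo and at the 32-cell stage. A change of at least 20 points outside the embryo range was called for 34 isoforms (0.432%) of 32 genes (5.75% of genes), 3 higher (0.0381%) and 31 lower (0.394%). Only 2 of the 34, in Tsr2 and Oosp3, were also 20 points from embryo 2 (0.0254%), and embryo 2 was the nearest embryo for 30. The full-length 15-exon isoform of Eif3d, a translation initiation factor, held 45.4, 42.6, 73.0 and 91.7% of the gene in the embryos and 26.8% of 205 UMIs at the 32-cell stage (exact 95% interval 20.9 to 33.4%). The largest opposite change was in a 2-exon piece of 468 bases at the 3-prime end of the gene, at 6.17 ± 6.15% and 16.1% (11.3 to 21.9%). The full-length isoform of Ncl, nucleolin, held 25.5, 16.1, 76.1 and 67.8%, and 15.6% at the 32-cell stage (11.8 to 20.2%). Those of Rars and Farsb, aminoacyl-tRNA synthetases, went from 59.3 ± 20.3% to 28.1% (20.8 to 36.5%) and from 61.5 ± 20.5% to 33.6% (25.1 to 43.0%). That of Nudc, a dynein regulator, went from 72.4 ± 23.8% to 44.4% (37.6 to 51.5%). The 5-exon isoform of Pou5f1 held 69.2, 67.2, 95.1 and 96.9% in the embryos and 55.0% of 100 UMIs at the 32-cell stage (44.7 to 65.0%), beside a 2-exon 3-prime piece at 9.55 ± 7.34% and 21% (13.5 to 30.3%). In these 6 genes embryos 3 and 4 had the highest full-length shares, on 20 to 67 UMIs per gene.

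In 2 genes of the 8 largest the share moved between isoforms of like length. Snrpc, the U1 snRNP protein C, has a 7-exon form of 1179 bases that begins at chr17:27837960 and a 6-exon form of 1171 bases that begins at chr17:27839682, and both end at 27851973. The first held 56.4, 36.6, 66.1 and 80.6% in the embryos and 25.9% of 378 UMIs at the 32-cell stage (21.6 to 30.7%). The second held 34.9, 53.02, 30.5 and 18.1% in the embryos and 62.2% at the 32-cell stage (57.1 to 67.1%). Both were called, which required the 32-cell share to lie outside the embryo range, and embryo 2 was the nearest. Tsr2, an X-linked ribosome biogenesis factor, has a pair of 5-exon forms of 1421 and 1453 bases. The shorter held 47.0, 68.1, 56.1 and 57.6% in the embryos and 29.8% of 57 UMIs at the 32-cell stage (18.4 to 43.4%). The longer held 47.0, 25.5, 36.6 and 36.4% in the embryos and 54.4% at the 32-cell stage (40.7 to 67.6%), a change under 20 points. Embryo 2 was here the embryo farthest from the 32-cell stage, unlike in most of the 34 isoforms.

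**Figure D5:**
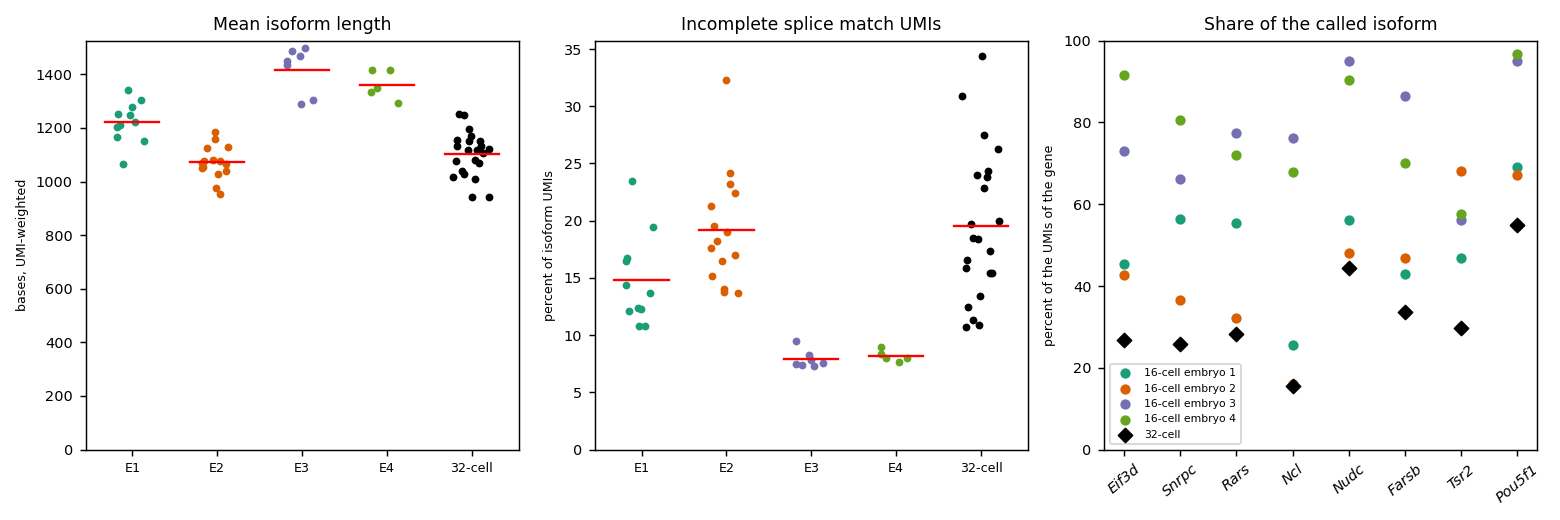
Mean isoform length per UMI (bases), share of UMIs from incomplete splice matches (percent) in each cell, and share of the gene's UMIs held by the called isoform for 8 genes (percent), for 16-cell embryos 1 to 4 (E1 to E4) and the 32-cell stage, with red lines at the mean over cells. The 32-cell stage lies with embryo 2 in length and partial share. It lies below all embryos in the 8 shares, as the call for these isoforms required.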

How the data were processed

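Single blastomeres were amplified one by one and sequenced as full-length cDNA. The authors deposited 1 gene table and 1 isoform table of CPM-type values, scaled here and in the files to copies per 100,000 UMIs of a cell. The authors mapped reads to mm10, collapsed and classified isoforms with SQANTI3 and removed isoforms seen in under 5 cells. Each value above 0 (100%) equalled a whole number of UMIs within a tolerance of 0.1, so UMIs were recovered for depth, thinning and edgeR, which called 0 genes at an adjusted p under 0.05. Of 161 cell columns 62 were not used, and the library set with whole and split oocytes was not used. The 8-cell and blastocyst cells served as context only.

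Cells were averaged per embryo, and the embryos of the 16-cell stage were the replicates. Nothing says that an embryo number was not reused in another run. Genes and isoforms were kept at a mean of the stage levels of at least 2 copies. Named were the 12 largest called genes in each direction at 10 or more copies, those that also passed the fold from embryo 2, up to 4 called members of each list, and the defining lineage genes. For isoforms these were the 6 largest in each direction and the 8 largest share changes. The comparison, the members and the gene lists were chosen with earlier results of these data known. Coordinates are GENCODE M21 (GRCm38), in which 19804 of 20171 gene symbols were found. Promoter sequences are RefSeq (GRCm38.p6). Scripts ran in Python 3.11.15 (numpy 2.4.6, pandas 2.3.3, scipy 1.17.1, matplotlib 3.10.9) and R 4.3.3 with edgeR 4.0.16 and limma 3.58.1. They were tested on simulated counts without an outlying embryo, which checks the scripts and not the calls in these data. Intervals and limits from counts cover counting error only. Alternatives covered the pseudocount, the filter, pooling of cells, the median over cells, deep cells, embryo 2 alone, a larger fold, sums over isoforms, and leaving out each embryo.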

Additional observations from a re-analysis of the deposited data

Results flagged for a closer look

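In 117 sets of 4 embryo values at the 16-cell stage, 12 had 1 embryo far from the others by Dixon's criterion. This criterion sets the distance to the nearest other embryo against the whole range. Its chance rate of about 1 in 20 holds for independent, normal values. The sets here share genes and hold sparse counts, so that rate cannot be set beside the 12. Embryo 2 was the highest in 7 of them. These were genes of the endoplasmic reticulum and of stress, Calr (97.7 copies per 100,000), Hsp90b1 (42.5), Pdia6 (46.7), Fkbp11 (37.3), Ddit4 (25.8), Slc3a2 (43.4) and the iron storage gene Ftl1 (808). Embryo 2 was the lowest in E330021D16Rik (4.12 copies). Embryo 3 was the highest in the water channel gene Aqp3 (47.6 copies) and in the summed level of the blastocoel pumps, channels and aquaporins that holds it (84.4 copies). Embryo 4 was the highest in the Y-linked gene Eif2s3y (1.96 copies, 0 in the other embryos) and in Spic (31.1 copies, where the other embryos lay between 27.3 and 27.6). The genes of the endoplasmic reticulum had been chosen after their values were seen, so their number among the 12 is a description.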

How the results depend on the processing

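Depth limits the levels of low genes, since 1 UMI was worth up to 14.4 copies in a 16-cell cell. Of 236 genes higher, 158 lower, 524 isoforms higher and 331 lower, a pseudocount of 5 left 16, 52, 84 and 102, and one of 0.1 gave 363 higher genes. No filter gave 402, 261, 1339 and 657, and a filter at 10 copies 30, 50, 101 and 71. UMIs pooled over a stage gave 93, 101, 130 and 145, and a fold limit of 2 gave 2, 42, 16 and 67. Medians over cells gave 74 genes lower, 251 isoforms higher and 101 lower, and cells with at least 20000 UMIs gave 346 isoforms higher. Sums over isoforms gave 93 genes higher. Embryo 2 alone as the 16-cell stage gave 383 genes higher and 240 lower. The fold from embryo 2 required as well, a condition chosen after seeing the data, left 111, 41, 142 and 44. edgeR gave 0 genes higher and 0 lower at an adjusted p under 0.05, with 31 and 90 at an unadjusted p under 0.05. Leaving out each embryo gave 179 to 382, 141 to 322, 396 to 949 and 265 to 996, each highest value without embryo 2.

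Of the 3 share changes higher and 31 lower, shares averaged over cells gave 6 higher, medians 9 and 47, pooled UMIs 9 lower, deep cells 4 lower, embryo 2 alone 127 and 123, a limit of 30 points 0 and 4, at least 50 UMIs 11 lower, and the added condition of 20 points from embryo 2 left 0 and 2. Leaving out each embryo gave 1 (without embryo 4) to 13 (without embryo 2) higher, with 6 without embryo 1, and 22 to 109 lower, the most without embryo 2. Thinning to 5000 UMIs gave 1940.9 and 2004.6 genes per cell at the 16-cell and 32-cell stage. Cells with a UMI were then 16.3% for Cdx2 at the 16-cell stage, 9.47% and 17.3% for Eomes at the 16-cell and 32-cell stage, 17.9% and 30.9% for Nanog, and 12.7% for Sox2 at the 32-cell stage. Over 75 named genes, 780 of 891 values moved by less than the spread between embryos and 110 by more, and values of genes not called could change sign. All 50 called genes kept their direction, except when summed from isoforms, where 41 of 43 did and Prkci reversed at -0.091, with Qk at 0. From embryo 2 alone or with an embryo left out, the call itself fixed the direction, so that agreement shows nothing. Fewer genes were still called: 26 of 50 from embryo 2 alone, 29 with a pseudocount of 5, and 34 by medians. In deep cells 37 were still called, with pooled UMIs 40, and with 1 embryo left out 46 to 49. Summed from isoforms, 26 of 43 were still called. The causes were not tested. No paired analysis was possible because the 32-cell cells name no embryo and form 1 sample.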
